A study of Mus musculus with 2 samples.

Results

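CpG-poor promoters are transcription starts set in DNA from which most CG dinucleotides have been lost. They were chosen as the starts of protein-coding genes on mouse autosomes, 1 per gene and always the most 5′ one, whose 500 bp centred on the start held under 0.4 of the CpG expected from its C and G content. This left 8098 of 21405 autosomal promoters (37.8%), beside 2546 of intermediate CpG (0.4 to 0.6) and 10761 that were CpG-rich (0.6 or more). The rule reads sequence alone and no DNase-seq value, though it was chosen with earlier results of these data known. Open chromatin was mapped with DNase I in mouse erythroid cells of strain 129 (male, derived from embryonic stem cells). The untreated cells were G1E, an erythroid progenitor line that lacks Gata1. The treated cells were G1E-ER4, its derivative in which Gata1 activity is restored through an estrogen receptor fusion, after 24 h in 10 nM beta-estradiol. Both lines thus share the loss of the endogenous Gata1 gene, and both are established lines in culture. Each state has 1 sample with 2 deposited peak lists, so differences between the states have no test, and cell line, treatment and library cannot be told apart.

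Vertebrate promoters fall broadly into CpG islands, which tend to be open in most cell types and often serve housekeeping genes, and CpG-poor promoters, which are more often methylated and serve genes used in few tissues. Opening a CpG-poor promoter usually depends on factors that bind particular DNA words. In red cell precursors the best known of these is GATA1, a zinc finger protein that binds GATA words and acts with KLF1, which binds CACC boxes. DNase I cuts where nucleosomes are displaced, so a peak marks accessible DNA and not transcription.

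The sequences that carry the erythroid and megakaryocyte part of the results are the 150 bases just before the start at 7 members that had a peak in all 4 lists. They are shown 5′ to 3′ on the gene's strand, read from the mm9 genome, and end at the base before the first base of exon 1. Capitals mark AGATAA or TGATAA on either strand (TTATCT or TTATCA when read from the other strand). These 7 were picked after their values were seen. Their starts are chr11:102226594 (Slc4a1, minus strand), chr2:120862808 (Epb4.2, minus), chr6:41654338 (Kel, minus), chr4:134420451 (Rhd, plus), chr8:87425827 (Klf1, plus), chr15:103088834 (Nfe2, minus) and chr11:70452624 (Gp1ba, plus).
Slc4a1: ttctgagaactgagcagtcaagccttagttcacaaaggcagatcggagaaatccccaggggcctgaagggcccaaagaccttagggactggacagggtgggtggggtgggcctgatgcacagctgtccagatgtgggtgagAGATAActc
Klf1: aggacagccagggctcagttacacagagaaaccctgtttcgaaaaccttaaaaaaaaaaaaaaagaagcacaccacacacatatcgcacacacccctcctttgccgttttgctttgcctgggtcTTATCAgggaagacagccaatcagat
Epb4.2: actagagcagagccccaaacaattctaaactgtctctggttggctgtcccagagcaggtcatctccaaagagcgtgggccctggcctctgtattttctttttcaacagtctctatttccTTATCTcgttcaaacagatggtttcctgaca
Kel: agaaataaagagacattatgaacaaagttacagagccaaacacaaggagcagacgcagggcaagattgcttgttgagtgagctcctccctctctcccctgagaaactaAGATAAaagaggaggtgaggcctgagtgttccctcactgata
Rhd: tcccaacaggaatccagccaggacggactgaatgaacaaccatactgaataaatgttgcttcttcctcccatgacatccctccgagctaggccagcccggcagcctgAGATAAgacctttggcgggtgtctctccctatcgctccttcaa
Gp1ba: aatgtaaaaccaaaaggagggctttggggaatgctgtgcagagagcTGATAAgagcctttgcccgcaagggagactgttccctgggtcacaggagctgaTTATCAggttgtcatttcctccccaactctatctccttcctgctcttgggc
Nfe2: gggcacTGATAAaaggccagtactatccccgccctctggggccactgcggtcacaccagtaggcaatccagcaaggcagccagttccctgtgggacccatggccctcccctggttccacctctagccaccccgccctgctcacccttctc
Counted back from the start, the nearest of these words begins at -9 in Slc4a1, -26 in Klf1, -31 in Epb4.2, -42 in Kel, -43 in Rhd, -51 in Gp1ba and -144 in Nfe2.

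A promoter was called open in a list when a peak of that list came within 1000 bp of its start. Each peak's signal was read as its percentile within its list, from 0 for the lowest to 100 for the highest of 100000 peaks, because the deposited signal is not scaled between lists. CpG-poor promoters were open in 20.8% (list 1) and 26.4% (list 2) of cases for G1E-ER4, and for G1E in 23.2% (list 1) and 23.1% (list 2). CpG-rich promoters were open in 87.6%, 95.5%, 92.9% and 85.3% in the same order. Where a CpG-poor promoter was open, its best peak had a median percentile of 74.3, 66.5, 68.6 and 72.1, against 91.5, 94.5, 93.9 and 94.3 at CpG-rich ones. Both measures were thus lower for the CpG-poor class in each of the 4 lists. G1E-ER4 list 1 stood somewhat apart: 25.5% of its open CpG-poor promoters had the summit within 250 bp of the start, against 31.7%, 34.3% and 33.7% in the other lists. Read depth is unknown, and all intervals below are 95% Wilson intervals that treat promoters as the unit. They cover counting over promoters only, since promoters of 1 library are not replicates.

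In all, 1043 CpG-poor promoters (12.9%, interval 12.2 to 13.6%) were open in all 4 lists, where the same call took in 50.3% of all promoters. The share was 40.3% in the intermediate class and 80.8% in the CpG-rich class. No list had a peak at 5157 CpG-poor promoters (63.7%), 863 were open in 1 list, 569 in 2 and 466 in 3. Promoters just inside and just outside the limit were alike: 28.5% of the 256 at 0.38 to 0.40 and 29.6% of the 243 at 0.40 to 0.42 were open in all 4 lists.

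Within the class the share climbed with what CpG was left, from 3.54% (2.80 to 4.48%) below 0.1 to 10.9%, 16.5% and 23.1% in the next 3 steps of 0.1. It also climbed with GC content: 1.01% of members under 40% GC were open in all 4 lists, then 3.90%, 8.53%, 18.4% and 34.1% in steps of 5 points, and 47.6% (41.2 to 54.1%) at 60% GC or more. The remaining CpG went with the share within most GC ranges as well. From the lowest to the highest CpG step it ran from 2.02 to 9.95% at 40 to 45% GC, from 1.72 to 15.6% at 45 to 50% GC and from 7.42 to 24.0% at 50 to 55% GC. At 55 to 60% GC the steps lay closer together, with 25.5% open below 0.1 (interval 17.8 to 35.2%), 32.2% at 0.1 to 0.2, 37.7% at 0.2 to 0.3 and 34.7% at 0.3 to 0.4. A CpG-depleted promoter rich in G and C was thus open far more often than one rich in A and T.

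**Figure D1:**
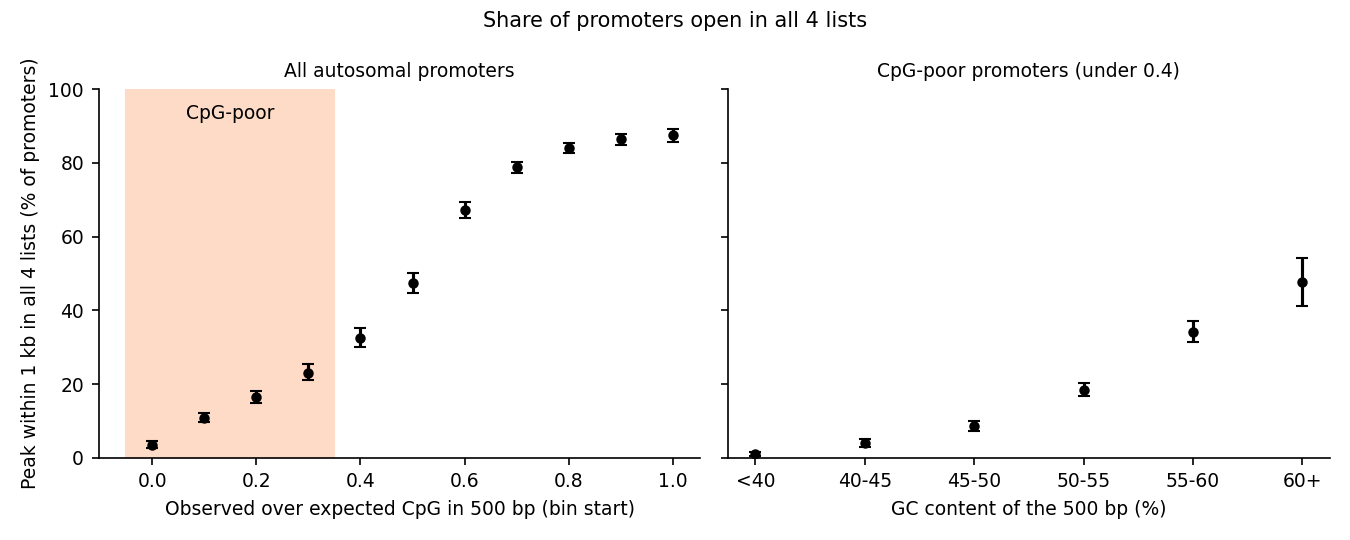
Share of promoters with a peak within 1000 bp in all 4 lists (%), by observed over expected CpG for all autosomal promoters (left; the shaded bins are the CpG-poor class, and the last bin holds values of 1 or more) and by GC content for the CpG-poor class alone (right). Points are shares and bars 95% Wilson intervals; within the class the share runs from 3.54% to 23.1% over the CpG bins and from 1.01% to 47.6% over the GC bins.

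Only the peak of highest percentile within 1000 bp, the best peak, was read in each list. A peak of any rank covered the start in all 4 lists at 541 of the 1043, and the best peak did at 419. At many of the 1043 the best peak was centred on other DNA. The summit lay within 250 bp of the start in all 4 lists at 183 of them (17.5%), against 63.6% of CpG-rich promoters open in all 4, and more than 500 bp away in all 4 at 426 (40.8%, against 4.49%). At 157 (15.1%) the 500 bp around the summit were themselves CpG-rich in all 4 lists, and these had the higher signal: their lowest percentile over the lists had a median of 92.3, against 62.5 for the 547 whose summits were CpG-poor in all 4 lists. Of those 157, 74.5% had a CpG-rich start of a protein-coding transcript within 2000 bp. Of all 1043, 18.6% did, and of the 5157 with no peak 0.349%.

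The 25 members with the highest signal in their weakest list show this plainly. In 18 of the 25 the summit was CpG-rich in all 4 lists, and in 17 a CpG-rich start lay within 2000 bp. 2310033E01Rik had percentiles of 99.7, 99.9, 99.6 and 99.7 (here and below in the order G1E-ER4 lists 1 and 2, then G1E lists 1 and 2), with summits from -1029 to -954 bp relative to its start. Nfkbib, which encodes an inhibitor of NF-kappaB, stood at 99.8, 99.5, 98.9 and 99.5 with summits 924 to 980 bp after its start. In both the summit windows held more than 0.7 of the expected CpG. Epor, the erythropoietin receptor gene, followed the same layout, with 97.6, 95.8, 95.6 and 96.0 and summits 940 to 957 bp inside the gene at a CpG of 0.67 to 0.72. Stat5a, which transmits the receptor's signal, had 92.4, 94.98, 97.001 and 96.5 with summits 1044 to 1058 bp after its start at a CpG of 0.73. In neither of these 2 erythroid promoters did the best peak have its summit at the annotated start. Summits of weaker peaks nearby were not read.

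**Figure D2:**
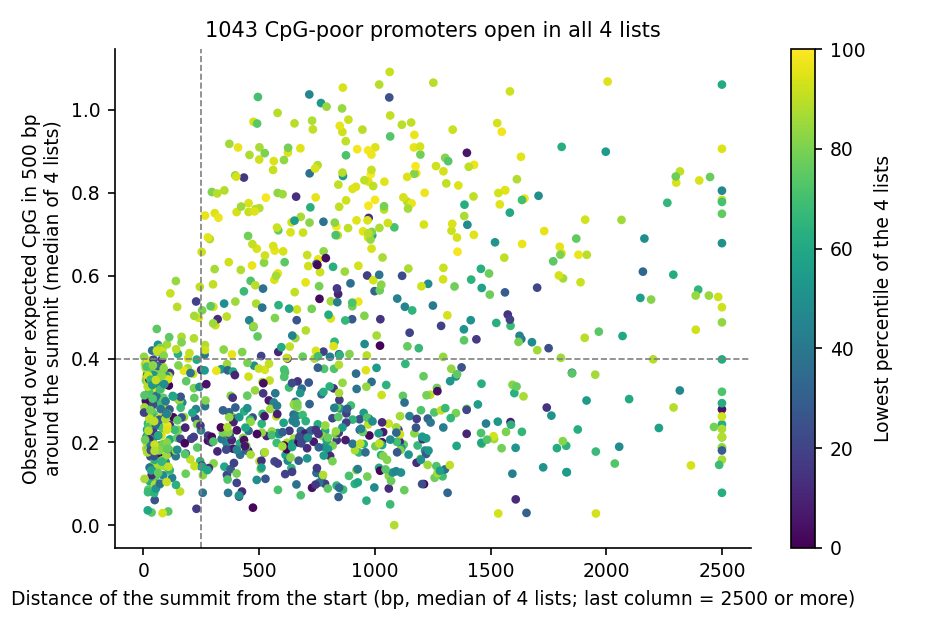
Each point is 1 of the 1043 CpG-poor promoters open in all 4 lists, by the distance of the peak summit from the start (bp, median of the 4 lists, values of 2500 bp or more drawn at 2500) and by observed over expected CpG around the summit (median of the lists); colour is the lowest percentile of the 4. Points to the left of 250 bp and under 0.4 are open at CpG-poor DNA of their own, and the upper points, whose summits are CpG-rich, are mostly of high signal.

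A group of 159 members had its summit within 250 bp of the start, in CpG-poor sequence, in all 4 lists. This subset was drawn after the values were seen, so it is described only. Its median lowest percentile was 74.7, 36 of the 159 stayed at 90 or more in every list, and 1.26% had a CpG-rich start within 2000 bp. Ap1g2, an adaptor subunit of vesicle coats, was the strongest, at 99.1, 97.1, 96.9 and 99.5, with summits from -20 to 0 bp. It is among that 1.26%, with a CpG-rich start 446 bp from its own. Ptpn7, a tyrosine phosphatase of blood cells, had 98.5, 97.2, 96.9 and 98.6. Cox7a1, a subunit of cytochrome c oxidase best known from muscle and heart, had 99.2, 98.3, 95.7 and 99.5. Mpnd shared its single peak with the neighbouring Stap2, so these 2 promoters count the same open site. These promoters stood above a percentile of 95 in all 4 lists.

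The 159 form 1.96% of the class. They included 7 of the 39 members of the erythroid lists described below, 4 of 34 of the interferon and innate response list and 2 of 21 of the megakaryocyte list. Nfe2, the transcription factor subunit that binds globin control regions, had percentiles of 97.9, 96.9, 95.5 and 97.8 with summits from -187 to -112 bp. The 4 interferon-responsive members were spread widely: Irf7, the regulator of type I interferon genes, stood at 96.6, 90.3, 88.6 and 90.4, and Igtp, an immunity-related GTPase, at 92.1, 91.6, 88.9 and 91.0, both with summits within 42 bp of the start. Ifitm2, an interferon-induced membrane protein gene, had 81.5, 74.5, 62.8 and 88.8, and Oas3, which makes an activator of RNase L, 15.96, 45.2, 52.9 and 34.0. H2-Aa and H2-Ab1, the chains of a class II antigen-presenting molecule, were open at 66.9, 71.8, 67.5 and 67.5 and at 86.4, 70.5, 66.3 and 74.2. Class II products are best known from antigen-presenting cells. Inpp5d, a phosphatase that restrains cytokine signalling, had 59.0 in G1E-ER4 list 1 but 89.6, 91.0 and 94.5 in the other lists. Spn, the leukosialin gene, had 58.2 there against 88.7, 87.4 and 94.7. For both genes the 2 lists of the treated state lay further apart than the 2 of the untreated one.

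By gene list, CpG-poor genes of red cell regulators and membrane proteins were open in all 4 lists more often than the class as a whole (12.9%). Of all promoters, whatever their CpG, 50.3% were. These lists and counts describe genes chosen with earlier results known, and carry no test. All 5 CpG-poor members of the erythroid transcription factor list were open in all 4 lists, as were 10 of 16 of the red cell membrane and surface list, 5 of 9 of erythropoietin and cytokine signalling, 2 of 7 globin genes and 3 of 11 of heme synthesis and iron. The intervals ran from 56.6% up for the transcription factors and from 38.6 to 81.5% for the membrane list, while those of globin (8.22 to 64.1%) and heme and iron (9.75 to 56.6%) took in the share of the class. The 50.3% of all promoters lay inside each of these intervals but that of the transcription factors. Among other blood lineages the counts were 9 of 21 for megakaryocyte and platelet genes, 6 of 23 for mast cell and basophil genes, 7 of 53 for granulocyte and monocyte genes and 5 of 52 for lymphocyte and NK cell genes. Genes of other tissues were open at 8 of 23 (muscle), 4 of 38 (liver and plasma), 4 of 27 (pancreas and gut), 2 of 20 (testis and oocyte) and 1 of 24 (epidermis and keratins). Muscle stood above the class as well. Tnnc1, the cardiac troponin C gene, accounts for 2 of its 8 because 2 gene identifiers share its start, and its summits lay from -1589 to -1510 bp in CpG-rich DNA.

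Of 10 autosomal erythroid marker genes, whatever their CpG, 9 were open in all 4 lists, where 50.3% of all promoters were. Of markers of other cells, Lck (T cell), Pax5 (B cell), Csf1r (macrophage) and Apoa1 (hepatocyte) were open in all 4 lists, no neutrophil marker was, and Cd3e, Cd8a, Ly6g, S100a8, Emr1, Alb and Ttr were among those with no peak in any list. Itga2b, Gp9 and Pf4, which mark megakaryocytes, were open in all 4 and Ppbp in none. Their part in the results was not tested.

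**Figure D3:**
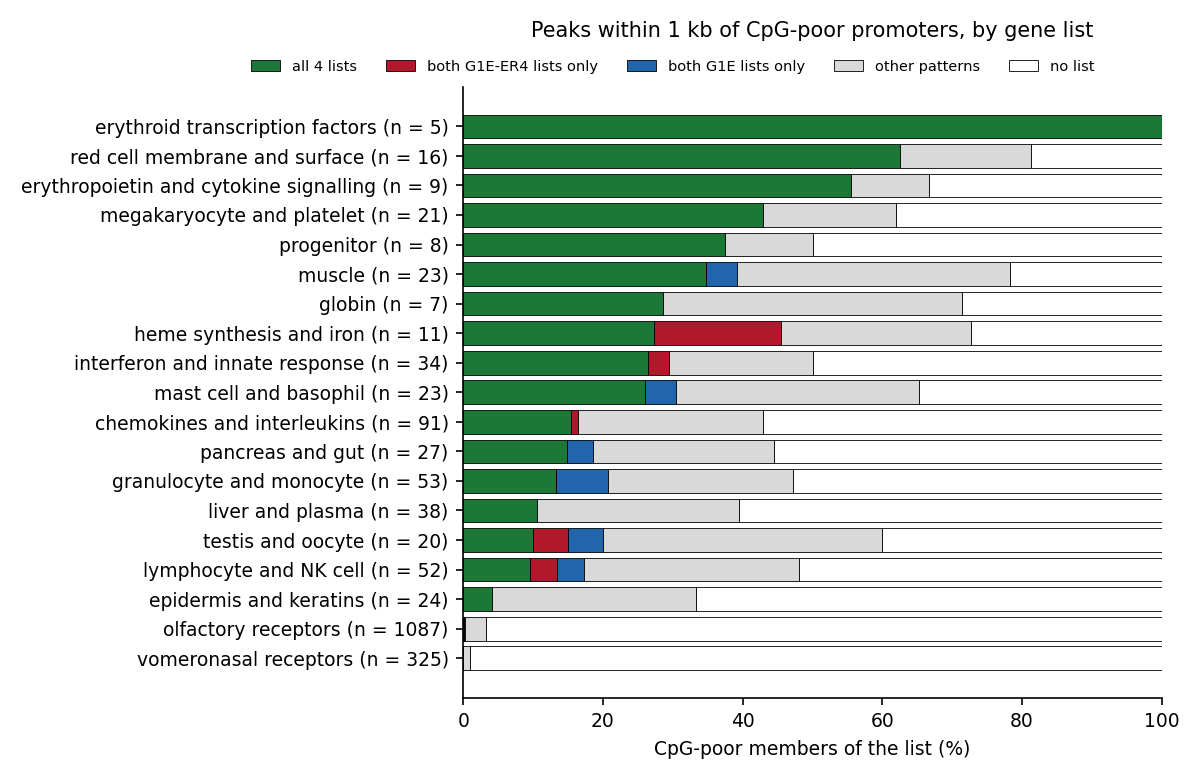
Share of the CpG-poor members of each gene list (%, n in brackets) with a peak within 1000 bp in all 4 lists, in both lists of 1 state only, in another pattern or in no list. The erythroid transcription factor, red cell membrane and cytokine signalling lists have the largest shares open in all 4 lists, globin and heme genes lie below muscle, and nearly all olfactory and vomeronasal receptor promoters have no peak.

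At the other end stood the receptors of smell, pheromone and taste, which form 1465 members (18.1% of the class) and 27.6% of those without any peak. Only 3 of them were open in all 4 lists (0.205%, 0.0697 to 0.6003%), and 1422 had no peak. Their median GC was 38.4%, against 49.2% for the other 6633 members, of which 15.7% were open in all 4. The exceptions were Tas1r1, an umami taste receptor subunit, at 99.1, 94.3, 97.5 and 97.4, whose summits at -756 to -730 bp were CpG-rich, Tas1r2 at 5.50, 15.5, 58.6 and 37.6, and Olfr1358 at 53.9, 60.9, 67.6 and 70.5. Vomeronasal receptors had 0 of 325 open in all 4, with a Wilson upper bound of 1.17%.

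Of the 16 members of the red cell membrane list, 10 were open in all 4 lists, 3 in some and 3 in none. Among the 10, both G1E-ER4 percentiles lay above both G1E ones at 2 and below them at 2. Slc4a1, the band 3 anion exchanger, had 87.4 and 92.9 after treatment and 92.4 and 91.3 in untreated G1E, with summits 7 to 53 bp after the start. Epb4.2, which encodes protein 4.2 of the red cell skeleton, had 82.8 and 88.1 against 89.3 and 88.6. Rhd, the Rh blood group antigen gene, had 89.9 and 91.6 against 87.0 and 89.3. For Slc4a1 the states overlapped, for Epb4.2 both G1E values were the higher, and for Rhd both G1E-ER4 values were, in each case by small margins. Kel, a blood group protease with 0.0346 of its expected CpG, had 59.97 and 83.1 against 76.6 and 89.1. Ermap, another erythroid surface protein, had 92.1 and 88.8 against 84.3 and 87.5. The states overlapped for Kel and not for Ermap.

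Klf1, a chief activator of globin and other red cell genes, had 96.1 and 91.9 with restored Gata1 against 90.6 and 94.0 without. Its best peak had its summit near the start in 1 list of each state (at -8 and 17 bp) and at a CpG-rich site 1248 and 1276 bp downstream in the other 2. Hba-a1 and Hba-a2, the near-identical alpha-globin genes whose reads cannot be cleanly assigned, had 92.8 and 94.3 against 86.8 and 95.9, and 92.4 and 94.5 against 86.6 and 95.03. Alpha-globin was thus open in both states. Hbb-b1, adult beta-globin, had 92.9 and 90.9 in G1E-ER4, no peak in G1E list 1 and 61.7 in G1E list 2. Hbb-b2, its close copy, had a peak in 1 list of each state, at 77.2 (G1E-ER4) and 29.5 (G1E). The embryonic genes Hbb-y and Hbb-bh1 had none.

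Of the 39 members of the 4 erythroid lists (globin, membrane, heme and iron, transcription factors), 20 were open in all 4 lists. The same call took in 12.9% of the class and 50.3% of all promoters. In these 20 both G1E-ER4 percentiles exceeded both G1E ones at 3 genes and the reverse held at 3 (15% each, near the 15.2% and 13.5% of all promoters open in all 4 lists). G1E-ER4 list 1 gave the lowest of the 4 values at 8 of the 20, and at 35.3% of all 1043. Slc11a2, an iron transporter gene, had 54.6 in that list and 99.8, 99.2 and 99.4 in the others, but from different peaks. The summit lay 1063 bp after its start in G1E-ER4 list 1 and 1992 to 2005 bp after it in the others. The neighbouring Gm5475 shared that further peak in the other lists and had 98.2 in G1E-ER4 list 1. The low value of Slc11a2 is thus not a lower rank of the same site. Of the 11 heme and iron promoters 2 were open in both G1E-ER4 lists only, and 0 in both G1E lists only. Of the 28 erythroid transcription factor, membrane and globin promoters 0 were open in both lists of 1 state only. The call is so rare in the class (1.42% for G1E-ER4 and 1.48% for G1E) that so few members say little.

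**Figure D4:**
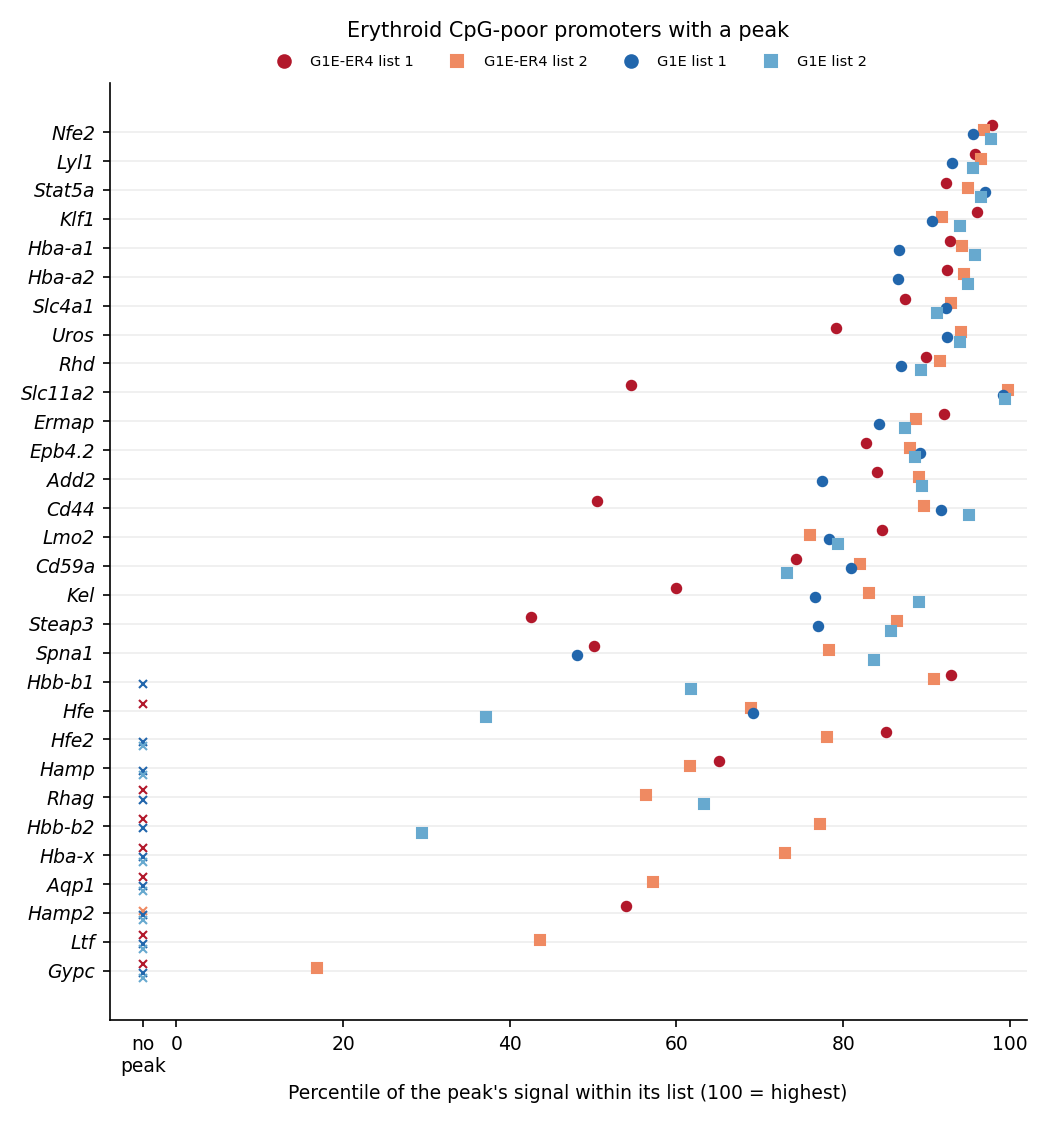
Percentile of the best peak within 1000 bp (100 = highest in its list) for each CpG-poor promoter of the 4 erythroid lists with any peak, other than 1 member not reported here, in the 4 lists; crosses at the left stand for no peak. The 19 upper genes are open in all 4 lists and their G1E-ER4 (red) and G1E (blue) points mostly mix, whereas Hbb-b1, Hfe2 and Hamp have their higher points or all their points in G1E-ER4.

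Of 21 genes of megakaryocytes, whose lineage shares GATA1 with red cells, 9 were open in all 4 lists. Gp1ba, the platelet receptor for von Willebrand factor, had 91.4 and 88.3 against 89.2 and 91.8, with summits from -74 to -24 bp. Itga2b, the platelet integrin alpha IIb gene, had 88.4 and 86.6 against 81.7 and 90.8. P2rx1, a platelet ATP receptor gene, had 58.4 and 92.5 against 90.9 and 93.6. None of these 3 separated the states. Of the 9, Tubb1 (given below) and Gp1bb, at 80.9 and 65.8 against 51.8 and 58.8, had both G1E-ER4 values above both G1E ones.

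GATA words were common at the open erythroid promoters. AGATAA or TGATAA on either strand lay in the 500 bp window of 16 of the 20 erythroid members open in all 4 lists (80%, 58.4 to 91.9%) and of 11 of the 19 open in fewer lists (57.9%), against 28.0% of all 1043, 46.5% of the 5157 without a peak and 23.0% of all promoters. In the 60 bp before the start the figures were 9 of 20 (45%), 4 of 19 (21.1%), 5.47%, 6.67% and 3.15%. The same letters in another order (AATAGA or AATAGT) lay in those 60 bp at 1 of the 20 (5%), at 2.49% of the 1043 and at 7.27% of those without a peak. Over the whole class GATA words were not commoner at open members. The groups differ in GC content. At 50 to 55% GC the GATA word was in the windows of 30.7% of members open in all 4 lists and 28.7% of those with no peak. The reordered one was in 16.7% and 24.7%. A word is a match of letters and not a bound site.

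Other words differed between open and closed members of the class. The CACC box CCNCNCCC was in 68.8% of the 1043 and 29.8% of those without a peak (64.0% and 51.1% at 50 to 55% GC), and in 66.1% of all promoters. The SP box GGGGCGGGG was in 6.81% and 0.814% (4.76% and 1.37%), beside 18.0% of all promoters. These windows lie at the start, and the window of an open member need not lie inside its peak. In the opposite direction, TATAAA was in the windows of 13.4% of the open and 36.6% of the closed members (12.2% and 22.4%), beside 16.6%. In the stretch 40 to 16 bp before the start on the gene's strand it was in 2.68% and 5.43% (2.68% and 7.11%), beside 2.39%. The share of the open members there was thus near that of all promoters. Both strands were searched unless stated, and the CACC and SP boxes can overlap.

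Open in both lists of 1 state and neither of the other were 115 members for G1E-ER4 (1.42%, where the same call took in 1.23% of all promoters) and 120 for G1E (1.48%, where it took in 0.883%). The G1E-ER4 share is near that background. Pairs that cross the states held similar or smaller numbers: 105 members were open in list 2 of both states only, 121 in G1E-ER4 list 2 and G1E list 1, 61 in G1E-ER4 list 1 and G1E list 2, and 47 in list 1 of both. The one-state peaks were weak, with a median over promoters of their mean percentile of 47.3 for G1E-ER4 and 42.6 for G1E, and only 4 members of each kind stood at 75 or more in both lists. The 2 peaks overlapped each other at 76 of the 115 and 89 of the 120. With G1E-ER4 list 2 alone standing for the treated state the G1E-ER4 count was 510, and with list 1 alone 267.

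The one-state members were unevenly spread over chromosomes. Chromosome 7 held 30 of the 115 G1E-ER4 ones (26.1%) and 9 of the 120 G1E ones, with 13.6% of all members. Chromosome 12 held none of the former and 16 of the latter (13.3%), with 2.17% of members, and chromosome 3 held 14 and 2. The whole lists leaned the same way: chromosome 7 had 9.07% and 9.01% of all G1E-ER4 peaks and 6.63% and 6.32% of G1E peaks, chromosome 12 had 3.78% and 3.87% against 6.81% and 7.07%, and chromosome 3 had 5.59% and 4.79% against 3.55% and 3.89%. Chromosome 17 held 2 and 14 of the one-state members while its share of peaks was 4.79%, 4.71%, 5.09% and 4.83%. Without chromosomes 7 and 12 the counts were 85 and 95. The part of these chromosome-wide differences in the one-state calls was not tested.

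The strongest one-state calls were set by the distance limit. Hnrnpm (97.3 and 95.9 in G1E) had a peak of the other state 1026 bp from its start, and Amac1 (97.8 and 97.1 in G1E-ER4) 1092 bp, just past the 1000 bp allowed. Pear1 was called from 2 G1E-ER4 peaks (98.1 and 68.7) whose summits lay at -1105 and 794 bp. A stricter rule asked both peaks to cover the start and the other state to have none within 2000 bp. Of the 8098 members, 23 then remained for G1E-ER4 and 30 for G1E, where the same rule took in 29 and 56 of all 21405 promoters.

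From those 30 of G1E, 5 genes of blood cells are given here, picked for that role after their values were seen. The G1E-ER4 members given below were taken by mean percentile instead, so the kinds of gene in the 2 sets cannot be compared. Other G1E-only members stood as high: Gm10451 had 84.8 and 88.8, and Clca1 78.3 and 74.0. Fcgr2b, the inhibitory receptor for IgG, had 75.2 and 88.2 in G1E with summits 72 and 15 bp after the start, and the nearest G1E-ER4 peak was 16463 bp away. Pik3cg, the catalytic subunit of PI3-kinase gamma, had 74.0 and 85.5, and the nearest G1E-ER4 peak was 21408 bp away. It lies on chromosome 12, whose share of peaks differs between the states as given above, and the part of that in its call was not tested. Klhl6, a gene of lymphoid cells, had 59.8 and 59.6, and Cd200r3 44.6 and 51.6. Lcp2, which encodes the adaptor SLP-76, had 13.2 and 47.8, low in both lists. Cd52, a small surface antigen of leukocytes, had 81.0 and 89.8 with summits at -68 and -73 bp, but missed the stricter rule because a G1E-ER4 peak lay 1513 bp away. By list, the one-state members of granulocyte and monocyte genes were 4 for G1E (Fcgr2b, Fcgr1, Cxcr2 and Camp) and 0 for G1E-ER4, of 53. The same calls took in 0.883% and 1.23% of all promoters, so a count of 0 among 53 is near the background.

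The 150 bases before the start of Cd52 (chr4:133650997, minus strand) and Pik3cg (chr12:32893524, minus strand) are shown as G1E-only promoters, picked after their values were seen. Neither has a GATA word in this stretch, which does not set them apart. In the 200 bp before the start a GATA word lay at 16.7% of the 120 G1E-only members, 18.3% of the 115 G1E-ER4-only ones and 14.6% of the 1043. Capitals mark the ETS words GGAAGT or GGAAGC on either strand (ACTTCC or GCTTCC from the other), which PU.1 and related factors of progenitors can bind.
Cd52: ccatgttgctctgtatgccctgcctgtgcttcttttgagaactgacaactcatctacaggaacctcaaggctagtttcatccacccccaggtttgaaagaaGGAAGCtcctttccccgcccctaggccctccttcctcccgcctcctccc
Pik3cg: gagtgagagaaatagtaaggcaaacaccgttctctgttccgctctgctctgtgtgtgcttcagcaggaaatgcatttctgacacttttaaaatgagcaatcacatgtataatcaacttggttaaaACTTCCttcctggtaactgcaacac
Such a word begins at -49 in Cd52 and at -25 in Pik3cg. In the 200 bp before the start an ETS word lay at 46 of the 120 G1E-only members (38.3%, 30.1 to 47.3%), at 33 of the 115 G1E-ER4-only ones (28.7%, 21.2 to 37.5%), at 33.7% of the 1043 and at 32.1% of all promoters, so the intervals of the one-state groups overlap.

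The 4 stricter G1E-ER4 members with the highest mean percentile were the following. Fbxo16, an F-box gene, had 85.6 and 76.7 with its summit at -96 bp in both lists. Atp4a, the stomach proton pump, had 78.8 and 72.6. Gsdma, a gasdermin of skin and gut epithelium, had 61.6 and 83.7, and Aldh1a1, which makes retinoic acid, 53.4 and 71.7. In both G1E lists these 4 had no peak within 1000 bp. Hfe2 and Hamp, the iron regulators hemojuvelin and hepcidin best known from liver and muscle, were the one-state members of the heme and iron list. Hfe2 had 85.1 and 78.1 and Hamp 65.1 and 61.6, and neither met the stricter rule. Atp4a lies on chromosome 7 and Hfe2 on chromosome 3, whose shares of peaks differ between the states as given above. The part of that in their calls was not tested.

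Of the 1043 promoters open in all 4 lists, 224 (21.5%, where the same call took in 15.2% of all promoters open in all 4) had both G1E-ER4 percentiles above both G1E ones. The reverse held for 167 (16.01%, against 13.5% of all). The median difference between the state means was 0.005 points, with quartiles of -5.88 and 5.51. The median size of this difference of means was 5.64 points. Single lists of 1 state lay a median of 7.63 points apart for G1E-ER4 and 3.996 for G1E, a distance that is not averaged and so cannot be set against it. Chromosome 7 alone gave 66 of the 224 and 14 of the 167, from 154 open members. Without chromosomes 7 and 12 the counts were 157 and 149. The order of the 2 counts depended on the setting: with summits within 1000 bp they were 106 and 110, and without G1E list 1 both were 345. Without 1 list in turn they ran from 345 to 494 and from 269 to 450.

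A gap of 20 points or more between the states was found at 34 of the 1043 members in favour of G1E-ER4 and 11 in favour of G1E. The same call took in 127 and 19 of all 10769 promoters open in all 4 lists, and 81 and 4 of the 8700 CpG-rich ones. The lean to G1E-ER4 was thus not particular to this class. Tubb1, the beta-tubulin of platelets and megakaryocytes, had 91.6 and 91.5 in G1E-ER4 against 51.8 and 48.7 in G1E. Its G1E-ER4 summits lay at -150 and -143 bp, and its G1E summits at -54 and 1259 bp. Myl7, an atrial myosin light chain gene, had 85.7 and 83.6 against 0.748 and 37.9. Its G1E-ER4 summits lay 18 and 20 bp after the start, and its G1E summits at 139 and -350 bp. Sbk2, on chromosome 7, had the widest gap, at 83.0 and 87.7 against 25.3 and 30.9. Its summits lay at -144 and -87 bp in G1E-ER4 and at 932 and -186 bp in G1E. Il1rl1, the interleukin-33 receptor of mast cells, went the other way, at 42.6 and 44.9 against 83.6 and 94.2. Its summits lay at -48 and -364 bp in G1E-ER4 and at -142 and -106 bp in G1E. Cd5, a T cell surface antigen, had 16.7 and 18.2 against 65.5 and 55.6, with summits at 1287 and -80 bp against 56 and -44 bp. Samd9l, an interferon-responsive gene, had 36.8 and 23.6 against 71.1 and 80.7 with summits 26 to 67 bp after the start in all 4 lists. Sox17, an endoderm and hematopoietic stem cell regulator, had 2.82 and 8.02 against 48.0 and 66.3, with summits in different places in the 4 lists. Each of these 7 was singled out for its gap, so the gap is a description. Where the summits lie apart, it can compare different sites.

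**Figure D5:**
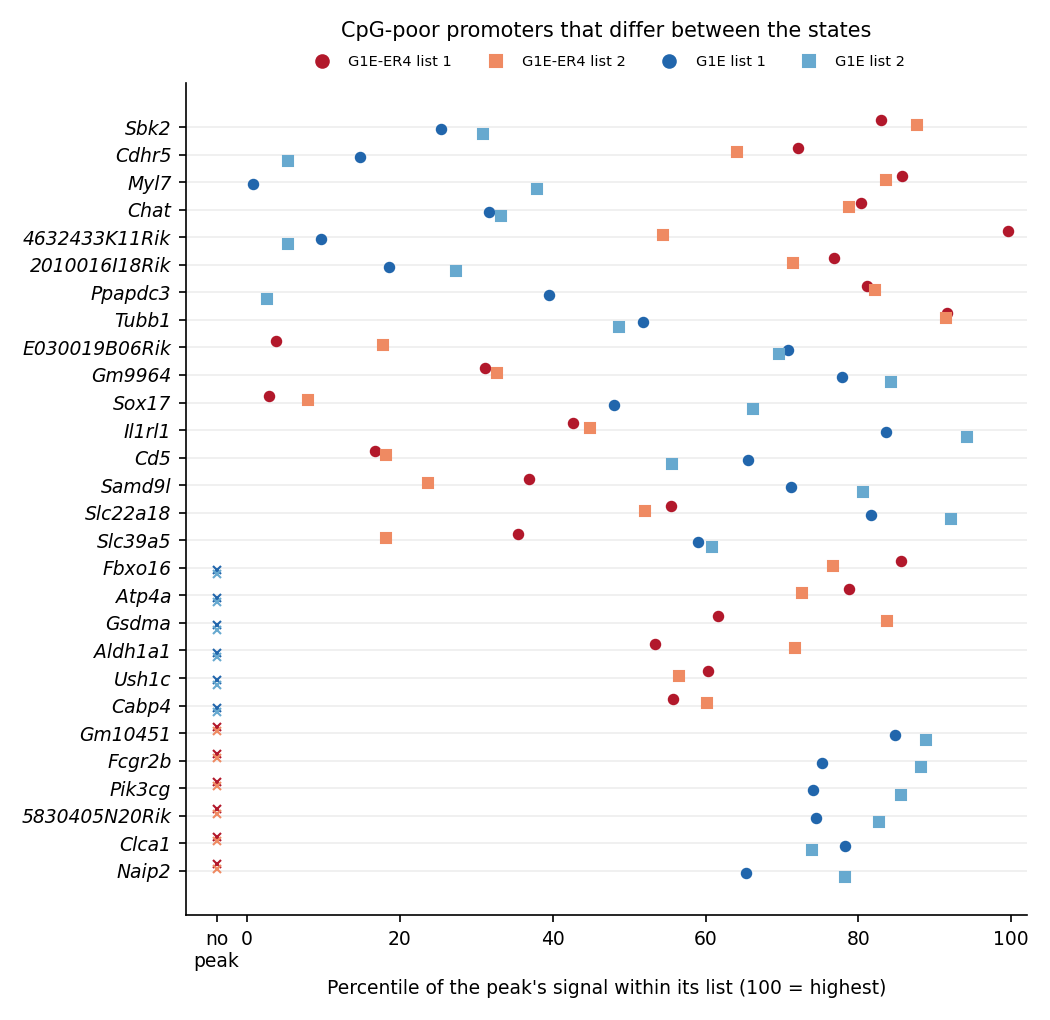
Percentile of the best peak within 1000 bp in each list for the 8 promoters open in all 4 lists with the widest gap in each direction, and for the 6 of each state with the highest mean percentile among members whose peaks cover the start and that have no peak of the other state within 2000 bp; crosses mean no peak. Tubb1 stands near 91.5 in both G1E-ER4 lists and near 50 in G1E, and Il1rl1 shows the opposite order, though for both genes the summits differ in place between lists.

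Members with no CpG at all in their 500 bp could still be called open, at times from a peak centred on other DNA. Gp5, a platelet glycoprotein gene, had none, and was open at 82.7, 88.1, 69.9 and 85.2. Its summits lay 1539 to 1932 bp downstream in 3 lists, in CpG-rich DNA (0.69 to 0.91). In G1E list 2 the summit lay at -84 bp, at a CpG of 0. Csf1r, the receptor for macrophage colony-stimulating factor, also had no CpG in its 500 bp and was open at 46.1, 3.48, 37.4 and 26.3. Csf1r was thus in all 4 lists at low ranks, with summits scattered from 79 to 1048 bp after the start.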

How the data were processed

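DNase-seq peaks of 2 samples, 1 per state, were read from 4 deposited lists, 2 per state. Per the series design text, the authors aligned tags to mm9 with Bowtie, keeping a tag with several places at its best one, combined lanes per replicate, made an F-seq density and took peaks by a gamma fit, in each list separately. No version or threshold is stated there. The signal of each peak is the density the authors deposited, unscaled between lists, and was used only as a percentile within a list. Keeping tags with several places can put peaks in repeated sequence and split or share signal between near-identical genes. The deposited score was 0 and the p and q fields -1 throughout, so they were not used. Distances from peak start to summit were taken as deposited by the authors.

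Starts came from GENCODE mouse release 1 on mm9 (21410 on autosomes, of which 5 had no usable 500 bp window). Of the members, 56 share a symbol and 30 a start with another. Python 3.11.15, numpy 2.4.6, pandas 2.3.3, scipy 1.17.1 and statsmodels 0.14.6 were used, and the code for windows and best peaks returned the planted answer for 100.0% of 1000 simulated promoters. Read depth is unknown and no test between states was possible with 1 sample per state. The members, gene lists and counts were chosen with earlier results of these data known. Named genes were the 25 open in all 4 lists with the highest lowest percentile, 12 per state with the highest mean percentile among one-state members, 8 per direction with the widest gap between states, up to 4 per gene list and the 5 open in all 4 with the least CpG. Genes outside this rule were named after their values were seen: those of the 159 with a summit at the start, the stricter one-state members, Kel, Gp1bb, Hbb-y and Hbb-bh1, and the marker genes. Values of 1 erythroid list member and 1 marker gene are not reported here, though counts over their lists include them.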

Additional observations from a re-analysis of the deposited data

How the results depend on the processing

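No paired analysis was possible because each state has 1 sample and no test was made between them. With 1043 members open in all 4 lists as reported, 541 were so when a peak had to cover the start, 605 when the summit had to lie within 1000 bp, 417 with the top 20000 peaks of each list, and 419 when the best peak of each list had to cover the start (chosen after seeing the data). Leaving out 1 list gave 1100 to 1240. The G1E-ER4-only count of 115 became 48 with the top 20000 peaks, 173 with the most 3′ start of each gene and 23 under the stricter rule, and 172 to 510 without 1 list. The G1E-only count of 120 became 73 with peaks covering the start, 63 and 35 with the top 50000 and 20000 peaks and 30 under the stricter rule, and 229 to 317 without 1 list. Leaving out G1E-ER4 list 1, whose summits stood apart, gave 510 and 229. The 224 members ranked higher in G1E-ER4 became 109 with peaks covering the start, 106 with summits within 1000 bp, 79 with the top 20000 peaks, 148 at a CpG limit of 0.3 and 137 without CpG-rich summits (added after seeing the data), and 345 to 494 without 1 list. The 167 ranked higher in G1E became 91, 110 and 56 under the first 3 of these and 107 with the top 50000 peaks, and 269 to 450 without 1 list. With summits within 1000 bp the G1E count was thus the larger of the 2, and without G1E list 1 both were 345. A state that rests on 1 list passes more promoters by construction. The other settings (500 bp, CpG limit 0.5, CpG in 1000 bp, no CpG-rich start within 2000 bp, without chromosomes 7 and 12) kept the 5 counts within 1.5 times, as did counting each start once for the 3 counts of open promoters.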
